A study of Mus musculus with 4 samples.

Results

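Among the cells captured from the embryonic mouse arcuate region was a population of 343 neurons with transcripts of Robo3, a Roundabout family receptor known from commissural axons, together with a transcription factor profile of the developing habenula. These Robo3-positive habenula-like neurons were picked by measured counts of 5 genes. A member had at least 1 unique molecular identifier (UMI, 1 captured RNA molecule) of Robo3, at least 1 of Tcf7l2 and at least 2 of Stmn2, which marks postmitotic neurons, and none of Gbx2 or Nkx2-1. Members made up 8.56% (7.71 to 9.47%, exact 95% binomial interval) of the 4006 cells with at least 2 Stmn2 UMIs and 5.40% of all 6351 cells kept. The 3663 other cells with at least 2 Stmn2 UMIs, named here the other Stmn2 cells, are the comparison set.

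The cells came from Pomc-eGfp embryos on the C57BL/6 strain at E15, an age that the sample titles give as E15.5. GFP-positive tissue, taken as the location of the arcuate nucleus (ARC), was dissected from 6 embryos, pooled, dissociated with papain and captured in droplets as 1 library. There is 1 group and no treatment, and the 4 deposited samples are sequencing runs whose counts were deposited as 1 matrix, so cells cannot be traced to an embryo. Position was not measured, and habenular cells carried over in dissection and cells that lay in the ventral hypothalamus cannot be told apart, so shares are of captured cells. Without replicates no difference between sets of cells could be tested. Values below are therefore pooled UMIs, counts scaled to the total UMIs of a set (CPM) and shares of cells with a UMI, and their intervals cover counting error only.

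The habenula is a small nucleus at the top of the diencephalon, next to the thalamus, that relays signals from the forebrain to the midbrain through the fasciculus retroflexus. The POU homeodomain factor Pou4f1 marks its neurons from early on, while Gbx2 marks neurons of the neighbouring thalamus and Tcf7l2, a transcription factor of the Wnt pathway, is shared by both. In the mature medial habenula, neurons use substance P, made from Tac1, or acetylcholine beside glutamate, and they are known for nicotinic receptors built from Chrna3 and Chrnb4.

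Members carried 1419324 UMIs in all, from 1787 to 13289 per cell with a median of 3851, against a median of 3340 in the other Stmn2 cells. Because the depths differed, shares were also taken after each cell was thinned to 2167 UMIs, which left out 3 of 343 members and 277 of 3663 other Stmn2 cells. Shares in 185 non-neuronal cells, defined by no Stmn2 and at least 2 detected genes of fibroblasts, endothelium or mural cells (median 3776 UMIs), are given as a reference, which holds free RNA and these cells' own expression together. Members had a median of 1771 detected genes and 4.04% mitochondrial UMIs.

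The values that chose the members lay close to the detection limit for Robo3. Robo3 (chr9:37415669-37433246 in mm10, minus strand) had 1 UMI in 200 members and between 2 and 6 in the remaining 143. Tcf7l2 ranged from 1 to 34 UMIs with a median of 6 and a single UMI in 20 members, and Stmn2 from 2 to 30 with a median of 8. Of the 699 Robo3 UMIs in all kept cells, 583 (83.4%) were in members, and Robo3 was found in 3 of the 185 non-neuronal cells.

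On either side of the thresholds, Pou4f1, which the rule did not use, was detected in 87.0% of the members with 1 Robo3 UMI and in 92.3% of those with more. Just outside, 1038 cells that met every other criterion but had no Robo3 UMI had Pou4f1 in 47.5%. The 22 cells that failed on Tcf7l2 alone had it in 36.4%, the 11 with a single Stmn2 UMI in 63.6%, and the 20 left out for an Nkx2-1 UMI in 70.0%. Cells without a Robo3 UMI thus included many with Pou4f1.

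Of the markers given with the habenula label that the rule did not use, Pou4f1 was in most members and Neurod2 and Neurod6 in few. Pou4f1 was detected in 306 of 343 members (89.2%, interval 85.4 to 92.3%) with a median of 5 UMIs and up to 25, compared with 17.0% of the other Stmn2 cells and 2.16% of the non-neuronal cells. After thinning these shares were 82.1% and 14.7% in members and other Stmn2 cells. The neuronal basic helix-loop-helix (bHLH) factors Neurod6 and Neurod2, also given as markers of this population, were found in a minority, with Neurod6 in 40 members (11.7%, or 9.12% after thinning) and Neurod2 in 31 (9.04%). Both were still more frequent there than in the other Stmn2 cells, where the shares were 0.98% and 1.91%.

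**Figure D1:**
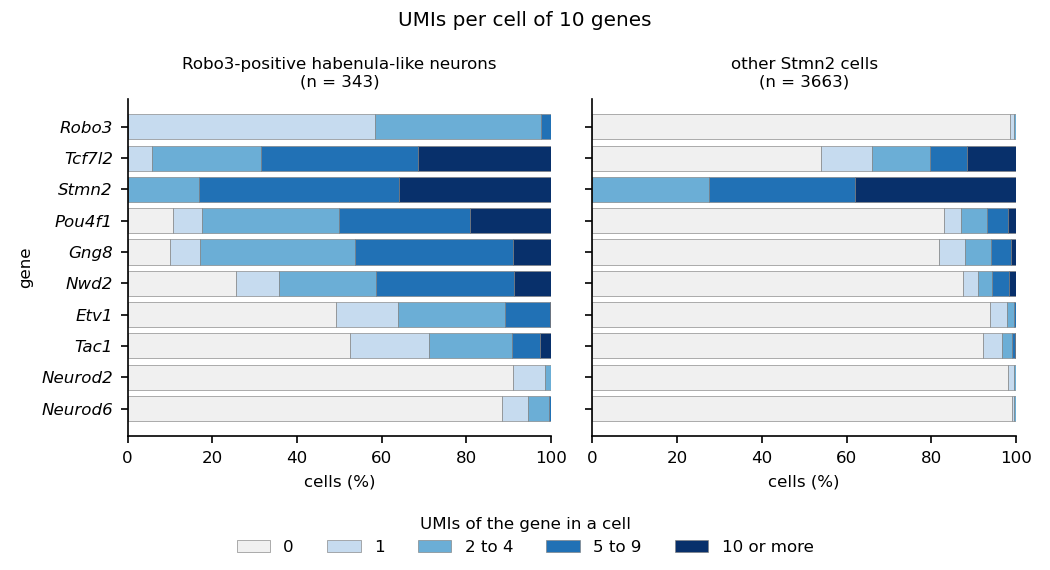
Percent of cells (x axis) by UMIs of a gene in the cell (shades, from 0 to 10 or more) for 10 genes in the 343 members and the 3663 other Stmn2 cells. Robo3, Tcf7l2 and Stmn2 were used to pick members, whereas Pou4f1, Gng8 and Nwd2 were not and reached 5 or more UMIs in many members, and Neurod2 and Neurod6 were at 0 in most.

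Across 12590 genes with at least 20 UMIs in members and other Stmn2 cells together, 482 (3.83%) were at least 2-fold higher in members and 1573 (12.5%) at least 2-fold lower, and the median log2 ratio of CPM was −0.08. The whole counting interval lay past 2-fold for 163 of the higher and 182 of the lower genes. Of the lower genes 305 had no UMI in members, and 260 of these lay within 2-fold at the limit of 3 counts. Of a list of 12 genes of habenula development, 10 were at least 2-fold higher and 1 was lower, with a median log2 ratio of 2.16. The lists were drawn up with earlier results of these data in view, so their counts describe the population and are not independent evidence. A list of thalamus genes was raised in part too, with 3 of the 6 compared at least 2-fold higher, Lhx9 (2.38), Foxp2 (1.17) and Lhx2 (1.05), 1 lower, Ntng1, and a median of 0.63.

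Besides Pou4f1, the most widely detected genes of the habenular list included Gng8, a G protein gamma subunit, which was detected in 90.1% of members and 18.1% of the other Stmn2 cells (82.4% and 15.3% after thinning), with a log2 ratio of 2.64 (2.55 to 2.73) and a non-neuronal share of 9.19%. Of the leading genes outside that list, Nwd2 was found in 74.3% and 12.5%, at a log2 ratio of 2.63. Necab2, a neuronal calcium-binding protein, was found in 77.3% and 21.7%, with a log2 ratio of 2.48. The orphan nuclear receptor Nr4a2 was detected in 64.7% of members, 13.5% of the other Stmn2 cells and 14.6% of non-neuronal cells, and the bHLH factor Nhlh2 in 85.4%, 35.4% and 5.41%.

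Further genes of the habenular list ranged from broad to rare detection. Nrp2, a semaphorin receptor, was found in 65.9% of members (log2 ratio 1.69) and Cntn2, an axonal adhesion molecule, in 32.4% (2.47). Gpr151, an orphan receptor that marks habenular axons, was present in 16 members (4.66%) against 1.23% of the other Stmn2 cells. Calb2, which encodes calretinin, was the exception and lower, at 4.96% against 10.8%, a log2 ratio of −1.35.

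**Figure D2:**
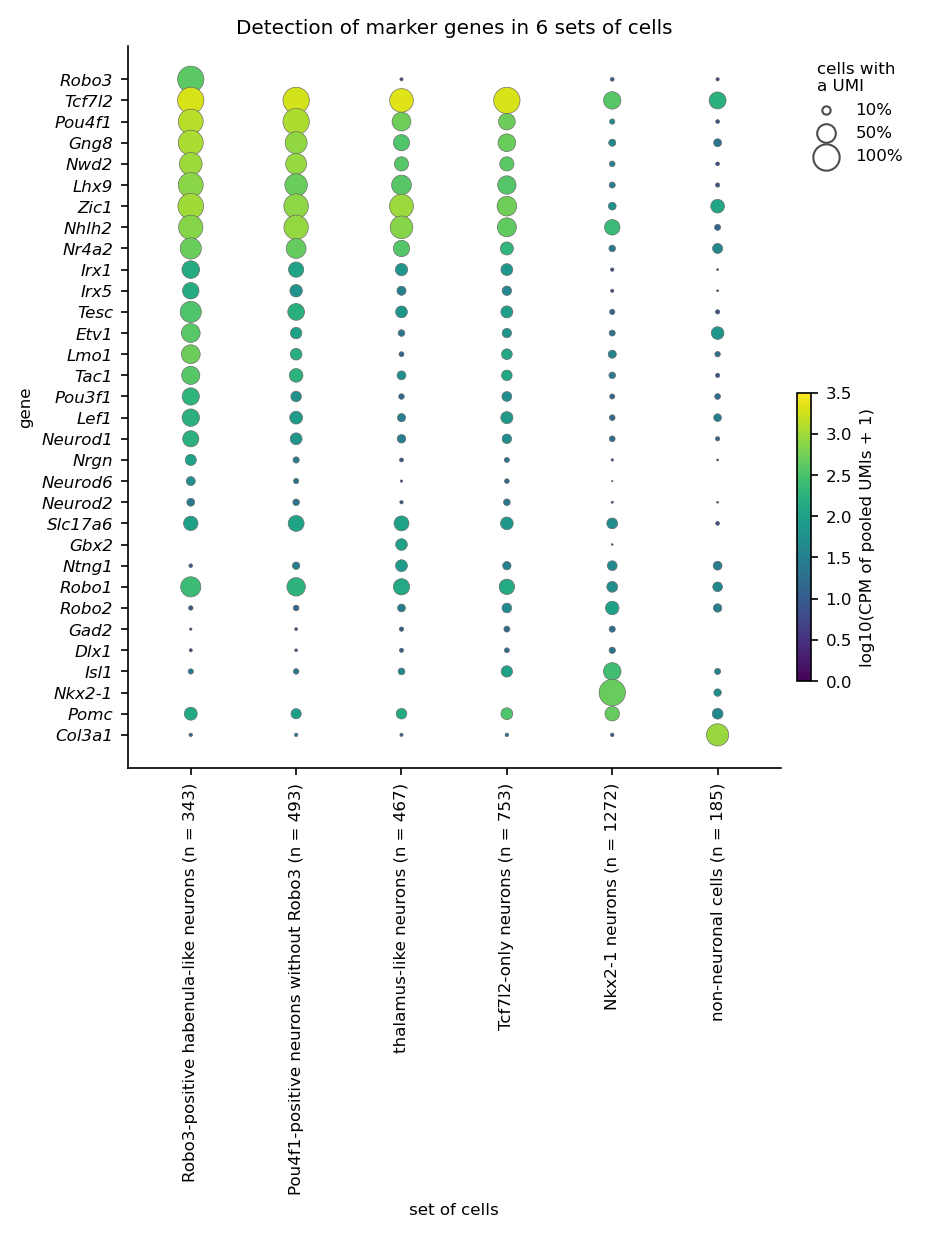
Share of cells with a UMI (dot area) and level as log10(CPM + 1) of pooled UMIs (colour) for 32 genes (rows) in 6 sets of cells (columns, with the number of cells). The column of members has large dots for Pou4f1, Gng8, Nwd2, Lhx9 and Zic1 and small ones for Robo2, Gad2, Dlx1 and Isl1. The sets overlap in part, and Robo3, Tcf7l2, Gbx2, Nkx2-1 and Pou4f1 define some of them.

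Homeodomain and zinc finger factors of the dorsal diencephalon were mostly higher in members. Of 15 Zic, Irx and Lhx genes compared, 12 were at least 2-fold higher in members and 2 lower, beside 3.83% and 12.5% of all genes. Their median log2 ratio was 2.12. All 5 Zic genes, zinc finger factors of the dorsal neural tube, were among the higher ones, from Zic4 at 1.66 to Zic5 at 2.35. Zic1 was detected in 326 of 343 members and 27.8% of the other Stmn2 cells, though also in 27.0% of the non-neuronal cells.

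The Iroquois factors were higher too, and less evenly detected from cell to cell. Irx2 was found in 63.0% of members and 14.2% of the other Stmn2 cells, Irx1 in 44.9% and 7.84%, and Irx5 in 39.1% and 4.89%. Their log2 ratios were 2.12, 2.33 and 3.20, and that of Irx3 was 2.93. The LIM homeodomain factor Lhx9, also on the thalamus list, was present in 89.8% of members against 20.5%, whereas Lhx1 and Lhx5, 2-fold or more lower, had log2 ratios of −3.72 and −2.12.

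POU and bHLH factors showed a mixed pattern in which single genes stood out. Pou3f1 was detected in 42.9% of members and 5.54% of the other Stmn2 cells, a log2 ratio of 3.27 (3.02 to 3.52). Its relatives Pou3f3 and Pou3f4 were found in 33.2% and 22.4% of members against 6.44% and 5.76%, and Pou3f2 was within 2-fold at 0.89. Of 13 neuronal bHLH genes compared, 7 were higher and 3 were lower, beside 3.83% and 12.5% of all genes. The list median was 1.21, and the lower ones included Neurod4 and Neurog2, factors of progenitors and newborn neurons. Neurod1 was the most widely detected of the Neurod genes, in 37.6% of members against 6.66%.

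Genes with the largest ratios over the other Stmn2 cells, after Robo3 itself, were each detected in part of the members. The predicted gene RP24-402O2.2 had a log2 ratio of 4.21 (3.70 to 4.75) and was detected in 19.8% of members against 1.23%. Nrgn, the calmodulin-binding protein neurogranin, was at 3.91 with a share of 17.8% against 1.58%. Etv1, an ETS transcription factor, was at 3.78 (3.59 to 3.97) and was found in 50.7% of members, 6.20% of the other Stmn2 cells, 5.27% of the Nkx2-1 neurons among these, and 23.2% of the non-neuronal cells.

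Lmo1, a LIM-only transcriptional regulator, and Tesc, which encodes the calcium-binding tescalcin, were detected in 51.0% and 64.4% of members, at log2 ratios of 3.36 and 3.18. The other leading genes included Ccdc109b, a component of the mitochondrial calcium uniporter (2.99), Vav3, an exchange factor of small GTPases (2.76), the vesicle protein gene Synpr (2.75), Tnfrsf19 (2.71), Ebf3 (2.65), Epha8 (2.53), Lef1 (2.52) and the kinase gene Nek7 (2.51). Of the related Ebf1, a further helix-loop-helix factor, 69.7% of members had a UMI, but so did 60.5% of the non-neuronal cells.

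**Figure D3:**
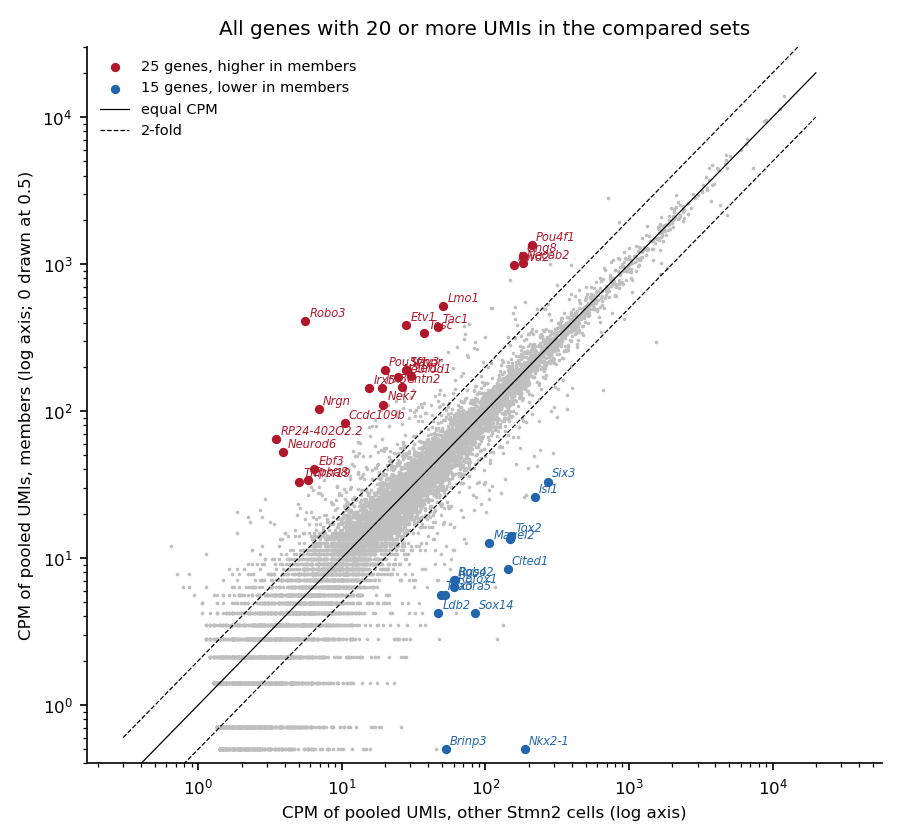
CPM of pooled UMIs in the 343 members (y, log axis) against the 3663 other Stmn2 cells (x, log axis) for 12590 genes, with the 25 genes of the largest ratio (red) and the 15 of the smallest (blue) marked and most of them named. The solid line is equal CPM and the dashed lines are 2-fold. Robo3 and Nkx2-1 stand out because the rule selected on them, and Brinp3 and Nkx2-1, at 0 in members, are drawn at 0.5.

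Glutamate genes were detected in members, whereas GABA genes were nearly absent. Slc17a6, the vesicular glutamate transporter of the diencephalon, was detected in 103 members, 16.7% of the other Stmn2 cells and 2.16% of the non-neuronal cells, a log2 ratio of 0.79. Gad2 was found in 3 of 343 members (0.87%) against 7.73%, Gad1 in 2 and Slc32a1, the vesicular GABA transporter, in 4. All 4 GABA and glycine genes compared were at least 2-fold lower, beside 12.5% of all genes, with a median log2 ratio of −3.05.

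Genes of the mature medial habenula were present in part. Of 11 listed, 5 could be compared, with 3 at least 2-fold higher and 1 lower, beside 3.83% and 12.5% of all genes. The lower one was Calb2 (−1.35), and Lrrc55 lay within 2-fold (0.69). Of those not compared, Slc17a7 was found in 3 members, Slc18a3 and Slc5a7 in 1 each and Chrna5 in 0. Tac1 was detected in 163 members (47.5%, 34.4% after thinning), with up to 29 UMIs in a cell, compared with 7.78% of the other Stmn2 cells and 2.70% of the non-neuronal cells. The nicotinic subunits Chrna3 and Chrnb4 were found in 10.8% and 7.29% of members against 2.51% and 0.76%, at log2 ratios of 2.16 and 3.11, and in 0 of 185 non-neuronal cells, which allows a share of up to 1.62%. Chat, the enzyme of acetylcholine synthesis, and Chrnb3 had no UMI in members, and 0 of 343 cells allows a share of up to 0.875%. Neither had a UMI in any of the other Stmn2 cells, so their absence does not mark members.

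Of the 4 lateral habenula genes compared, only Gpr151 was 2-fold higher, whereas Chrm3, a muscarinic receptor, and Vgf, a secretory granule protein, were lower at −1.15 and −2.05. The interval of Chrm3 reached from −2.81 to 0.11, so its counts did not separate it from an equal level. Among 13 neuropeptide genes compared, 2 were higher, Tac1 and Cartpt (41 members, log2 ratio 1.59), and 10 were lower, including Npy at −5.42 and Sst at −5.22. The lateral habenula and neuropeptide counts are to be read beside the 3.83% higher and 12.5% lower among all genes.

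Genes of ARC neurons and of other ventral neurons were low in members. All 12 ARC genes compared had a lower CPM in members, 11 of them by at least 2-fold with genes at 0 set to the limit of 3 counts. Among all genes 12.5% were at least 2-fold lower. The list had a median log2 ratio of −3.10, or −2.94 at that limit. Agrp, Ghrh and Hmx3 had no UMI in members, where the limit for Hmx3 lay within 2-fold at −0.69, and at least 2 ARC genes were detected in 7.87% of members against 41.3% of the other Stmn2 cells. Isl1, a LIM homeodomain factor of several ARC types, was found in 4.08% of members and 34.4% of the other Stmn2 cells. Cells with Nkx2-1, an ARC factor, were left out of members by the rule and make up 1272 of the other Stmn2 cells.

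Pomc was an exception in detection but not in level. A UMI of Pomc was found in 24.2% of members and 23.2% of the other Stmn2 cells, while 16.8% of the non-neuronal cells also had one, and its CPM was 128 in members against 368. After thinning the shares were 11.5% and 17.3%. Most members with Pomc had a single UMI, and 1 member had 66.

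All 7 genes of a Dlx and prethalamus list were 2-fold or more lower (median −4.04, or −3.44 with the gene at 0 at its limit). So were 4 of 5 genes of the ventromedial hypothalamus, beside 12.5% of all genes. Among the 15 genes of the smallest ratio were Sox14 (−4.33), Cited1 (−4.08), Tox2 (−3.43), the splicing factor gene Rbfox1 (−3.24), Tbx3 (−3.12), Magel2 (−3.06) and Six3 (−3.03). Brinp3 had no UMI in members and 742 in the other Stmn2 cells, which at the limit of 3 counts is a log2 ratio of −4.64. Of 8 genes of cortical projection neurons, where Neurod2 and Neurod6 are also known, 6 were at 0 in members, and most of these were rare in the other Stmn2 cells too, so that 3 genes could be compared. Bcl11b, a zinc finger factor of the same list, was found in 28.6% of members against 22.1% of the other Stmn2 cells (log2 ratio −0.10), and was at a log2 ratio of 1.27 over neurons with a UMI of Gbx2 or Kitl, the thalamus-like set.

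**Figure D4:**
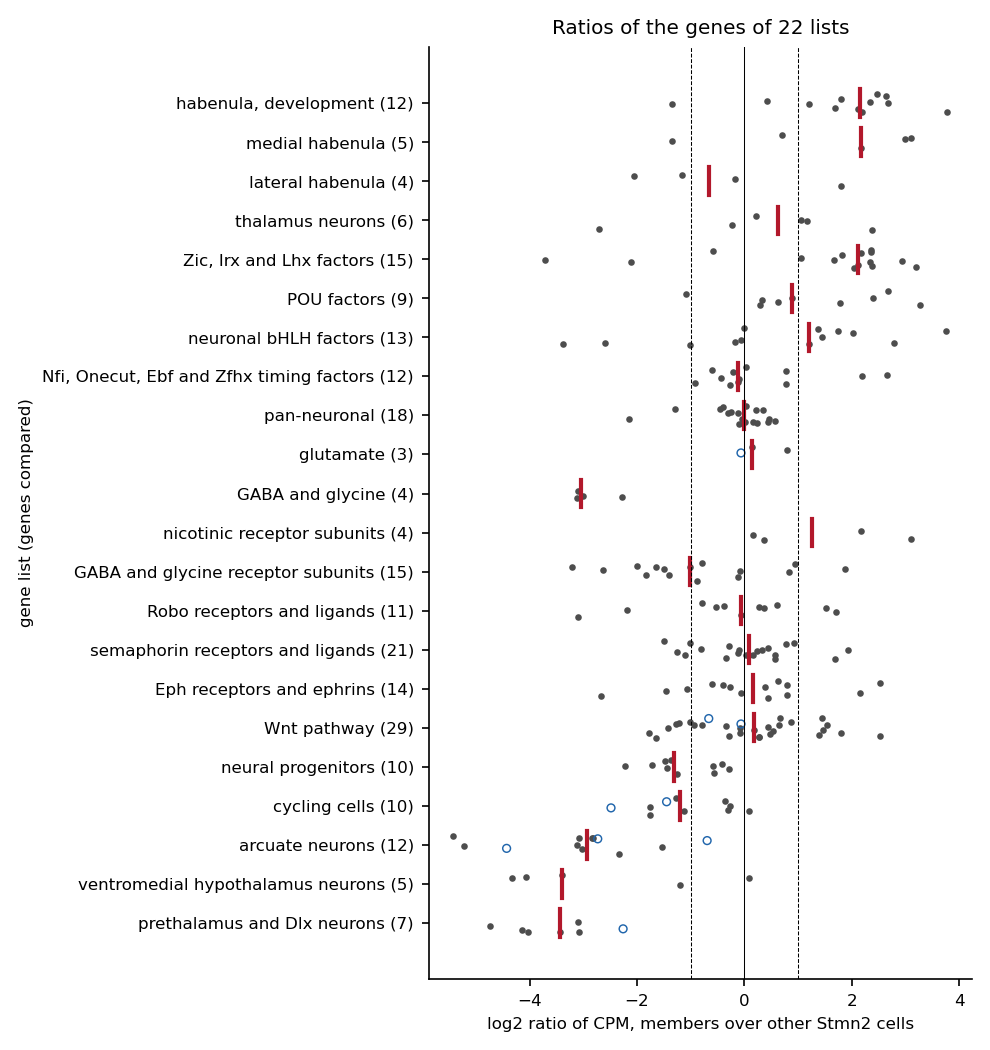
Log2 ratio of CPM, members over other Stmn2 cells (x axis), for each compared gene of 22 lists (rows, with the number of genes compared). Points are genes, red bars are list medians, open circles are genes at 0 in one set drawn at the limit of 3 counts, and dashed lines are 2-fold. The habenular, medial habenular and Zic, Irx and Lhx lists lie mostly to the right of 2-fold, and the GABA, ARC and Dlx lists to the left.

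Axon guidance genes are given by family, and their counts are to be read beside the 3.83% higher and 12.5% lower among all genes. Roundabout receptors bind Slit ligands, and among the relatives of Robo3, Robo1 was detected in 58.6% of members against 20.5% of the other Stmn2 cells (log2 ratio 1.70), whereas Robo2 was found in 10 members (2.92%) against 15.9% (−3.09). Slit2 was higher at 1.52, and 7 of the 11 Robo and Slit genes compared lay within 2-fold, with a list median of −0.06. The netrin receptor gene Dcc was at 1.05, and its ligand Ntn1 was found in 14 members (4.08%) against 1.67%. The repulsive netrin receptors Unc5c and Unc5d were lower, at −3.08 and −2.20.

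Ntng1, a netrin-related surface protein and the only lower gene of the thalamus list, was found in 7 members (2.04%) against 12.4%, a log2 ratio of −2.71. Eph receptors, which read ephrins on neighbouring cells, and ephrins had 2 of 14 compared genes higher, Epha7 at 2.16 and Epha8 at 2.53, and 3 lower (12.5% among all genes), including Epha4 at −2.67, with a median of 0.16. Of 21 semaphorin genes compared, 2 were higher (Nrp2 and Sema3e) and 4 lower, beside 3.83% and 12.5% of all genes. Of 20 axonal immunoglobulin genes, read beside the same shares, 3 were higher and 3 lower, among them Alcam at 1.47 and L1cam at −1.34.

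The Wnt pathway list, which holds Tcf7l2 of the rule, had 6 of 29 compared genes higher and 8 lower, beside 3.83% and 12.5% of all genes, with a median of 0.18. Of the lower ones Dkk3 and Wnt7b had no UMI in members and lay within 2-fold at the limit of 3 counts, which leaves 6. Lef1, a transcription factor of the same family as Tcf7l2, was detected in 43.7% of members against 8.35%, and Axin2, a widely used Wnt target, in 13.7% against 4.48%. The receptors Fzd1 and Fzd7 were among the higher genes, and Fzd2 and Fzd5 among the lower.

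Pan-neuronal genes mostly lay within 2-fold of their level in the other Stmn2 cells. Of 18 compared, 16 were within 2-fold and none was higher, with a median of −0.01, and the 2 lower ones, beside 12.5% lower among all genes, were Syt4 (15.7% of members against 36.0%, log2 ratio −2.15) and Scg2 (−1.30), both proteins of secretory vesicles. Of 10 progenitor genes and 10 cycling genes compared, 6 of each were lower and none was higher. The GABA receptor genes included Gabbr2, a subunit of the metabotropic receptor, as the only higher one (1.88) and 8 lower ones of 15, among them Gabra5 at −3.21.

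Further classes of neuronal genes are described by their counts, to be read beside the 3.83% higher and 12.5% lower among all genes. Of 20 glutamate receptor genes compared, 2 were higher, the metabotropic Grm2 (4.66% of members against 0.85%) and Grm3, and 6 lower, including Grin2b and Grm5. Of 32 voltage-gated channel genes, 5 were higher, among them Cacna1d, Kcna2 and Kcnd2, and 10 lower, or 8 at the limit of 3 counts. Of 19 cadherins and protocadherins 1 was higher and 5 lower, with a median of −0.35, and of 14 immediate-early genes none was higher and 5 lower, with a median of −0.69. Ebf1 and Ebf3 were the only higher genes among 12 Nfi, Onecut, Ebf and Zfhx factors, whose expression shifts as neurons are born at different times, and the list median was −0.11.

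At least 2 genes of other cell types were detected in 1 of 343 members for fibroblasts, in 1 for endothelial and mural cells, in 0 for macrophages and in 11 for pituitary cells. For the pituitary list this is 3.21% of members, against 2.16% of the other Stmn2 cells and 7.03% of the non-neuronal cells. The summed level of the fibroblast list was 36.6 CPM in members, 32.9 in the other Stmn2 cells and 3057 in the non-neuronal cells. At least 2 hemoglobin or other erythroid genes were detected in 23.3% of members, 20.3% of the other Stmn2 cells and 22.2% of the non-neuronal cells.

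C1qa, a complement gene of macrophages, was found in 16 members and was 2-fold or more higher (2.11), although its partners C1qb and C1qc were in 4 and 3. C1qa lies 30.6 kb from Epha8 on the same strand. Epha8 was found in 41 members, and 0 members had both genes. The part of read assignment was not tested.

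Thalamus-like neurons served as a closer comparison, since the thalamus borders the habenula. They were defined by at least 2 Stmn2 UMIs, a UMI of Gbx2 or Kitl and none of Nkx2-1, were not members, and numbered 467 with a median of 3990 UMIs. Gbx2 was detected in 19.7% of them, so most entered by a Kitl UMI alone, and whether these are thalamic neurons was not tested. Pou4f1 was detected in 51.2% of the set, so many of its cells share this habenular factor with members. Against the set, 233 of 9619 genes (2.42%) were at least 2-fold higher in members and 612 (6.36%) lower, with a median log2 ratio of −0.05. Against its 228 cells without Pou4f1, 358 of 8643 genes were at least 2-fold higher and 496 lower.

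Some factors past 2-fold against all other Stmn2 cells lay within 2-fold of thalamus-like neurons. The log2 ratio of Zic1 was 0.10, that of Zic4 0.05, that of Nhlh2 −0.03 and that of Nr4a2 0.48. Slc17a6 was detected in 103 of the 343 members and in 32.1% of the thalamus-like neurons (log2 ratio −0.05, interval −0.38 to 0.27). The habenular list had 6 of 12 genes 2-fold or more higher and 1 lower against this set.

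The genes of largest ratio over thalamus-like neurons, after Robo3, were headed by Lmo1, found in 51.0% against 3.64% (log2 ratio 5.28, 4.73 to 5.90), and Etv1, in 50.7% against 6.42% (4.18). Neurod6 (4.15), RP24-402O2.2 (4.03), Pou3f1 (3.84), Nrgn (3.71), Syt9 (3.40), Ccdc109b (3.31) and Ebf3 (3.02) followed. Lower in members were Id4, an inhibitor of bHLH factors (−3.78), Epha4 (−3.62), Ntng1 (−3.49), Ldb2 (−3.25), Chrm3 (−3.12), Rftn1 (−3.05), AI593442 (−2.73), Fjx1 (−2.71) and the coactivator gene Ppargc1a (−2.62). Gbx2 and Kitl differed by construction.

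To compare cells with and without Robo3 that all had Pou4f1, the 306 members with Pou4f1 were set beside the 493 cells that met the rest of the rule and had Pou4f1 but no Robo3 UMI, a comparison added after the data were seen. Of 9491 genes, 143 (1.51%) were 2-fold or more higher and 426 (4.49%) lower, and the whole interval lay past 2-fold for 17 and 41 of them. Several genes raised over the other Stmn2 cells lay within 2-fold here, with Gng8 at a log2 ratio of 0.54, Nwd2 at 0.25 and Nr4a2 at 0.14. Pou4f1 was at 0.36, but both sets were selected for a UMI of it. The habenular list had 1 of 12 genes higher, Etv1, and 1 lower, Calb2.

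The genes of largest ratio in the members with Pou4f1 included Fam19a1, a secreted protein gene (2.14), RP24-402O2.2 (2.12), Etv1 (2.08), Pou3f1 (1.92), Nrgn (1.90), Lmo1 (1.81) and Syt9 (1.77). Etv1 was found in 53.9% of the members with Pou4f1 and in 19.1% of the cells without Robo3. Lower were Stxbp6 (−2.79), Ppargc1a (−2.56), Lingo2 (−2.33), Vstm2a (−2.30) and AI593442 (−2.29). The cells without a Robo3 UMI include Kitl-positive ones, 38.9% of them against 14.7% of the members with Pou4f1. With 1 to 6 Robo3 UMIs per member, a count of 0 does not show that Robo3 RNA was absent.

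Within the population, 11 genes were examined in pairs for detection in the same cell. Neurod2 and Neurod6 had the largest ratio to independent detection, with both in 20 members where 3.62 would be expected, a ratio of 5.53 (3.38 to 8.54). Nr4a2 and Etv1 were together in 152 members where 113 would be expected (1.35, 1.14 to 1.58). Tac1 and Etv1 shared 74 members, a ratio of 0.89 with an interval of 0.70 to 1.12. Genes detected in most members, such as Pou4f1, Gng8, Lhx9 and Nhlh2, leave little room for a ratio away from 1, so pairs with them are not described. Tac1 was added to the 10 planned genes after the data were seen.

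Grouping the 343 members by their variable genes gave 3 subclusters of 179, 105 and 59 cells, with medians of 3858, 3815 and 3871 UMIs. The subclusters were made from the expression of these cells, so differences between them, also in genes that do not lead a subcluster, are a description. The subclusters are left without cell type names.

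Subcluster 1 was led by Nfib, Kcng4, Chn2, Otx2, Rspo3 and D030055H07Rik. Rspo3, a secreted enhancer of Wnt signalling, was detected in 53.1% of its cells and in 5.71% and 18.6% of subclusters 2 and 3. Tac1 was found in 67.6% of its cells against 27.6% of subcluster 2 and 13 of the 59 cells of subcluster 3, and Cntn2 in 52.5% against 12.4% and 6.78%. Neurod2 was nearly limited to it, with 28 of the 31 positive members, whereas Neurod6 was found in 13.4% of subcluster 1 and 15.2% of subcluster 2.

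Subcluster 2 was led by Lrrc3b, Ascl4, Sostdc1, Cdh13, Col25a1 and Nrgn. Etv1 was detected in 90.5% of its cells against 41.3% and 8.47% of subclusters 1 and 3, and Nr4a2 in 95.2% against 54.2% and 42.4%. The nicotinic subunits Chrna3 and Chrnb4 were found in 22.9% and 18.1% of its cells, in 7.26% and 3.35% of subcluster 1 and in none of the 59 cells of subcluster 3. Nrgn was found in 41.9% of its cells against 7.26% and 6.78%.

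Subcluster 3 was led by Kitl, Mast4, AI593442, Lrfn5, Mgat4c and Spock3, and had the lowest shares of Pou4f1 and Gng8 of the 3. Pou4f1 and Gng8 were each detected in 67.8% of its cells, Etv1 in 8.47% and Lmo1 in 10.2%, while Neurod2 and Neurod6 were in none of them. Kitl, a thalamic marker that defined the thalamus-like set, was found in 62.7% of its cells against 6.70% and 1.90%. The neurofilament gene Nefl was detected in 52.5% against 17.3% and 11.4%, and 4 of 18 pan-neuronal genes were 2-fold or more higher than in the rest of the members and none lower, beside 352 higher and 636 lower of 7047 genes compared. Robo3 itself was at 270 CPM there and at 439 and 443 in subclusters 1 and 2.

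**Figure D5:**
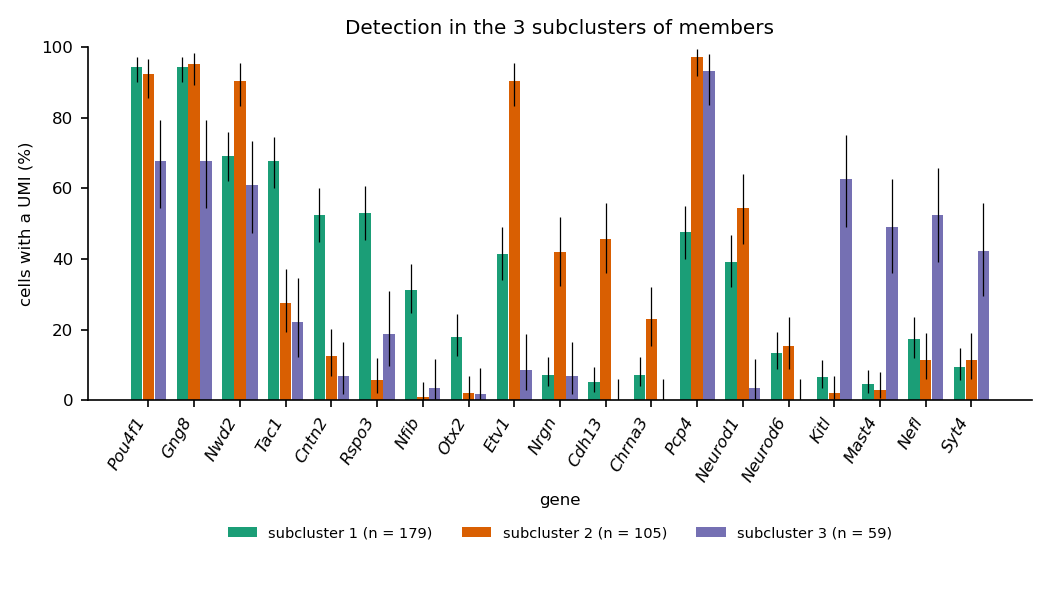
Share of cells with a UMI (y axis, percent) for 19 genes in the 3 subclusters of members (179, 105 and 59 cells), with exact 95% binomial intervals as error bars. Tac1, Cntn2 and Rspo3 are highest in subcluster 1, Etv1, Nrgn and Cdh13 in subcluster 2, and Kitl, Mast4 and Nefl in subcluster 3. The subclusters were made from the expression of these cells, so the differences are a description.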

How the data were processed

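The authors deposited raw UMI counts per gene and barcode as 1 matrix from 4 runs of 1 library, made with Cell Ranger 2.1.1 and STAR 2.4.0 on mm10, with Seurat 2.0 among the tools in the submitters' processing notes. No value was normalized before deposit, and 0 other columns of samples were present. The 6465 barcodes held 26277265 UMIs. Barcodes with 200 to 4500 genes, at most 10% mitochondrial UMIs and at most 10 Hba-a1 UMIs were kept. No doublet caller was run beyond the gene limit, and no barcode was repeated.

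From these counts CPM of pooled UMIs, their log2 ratios (conditional exact binomial intervals) and shares (Clopper-Pearson intervals), all at 95%, were computed in Python 3.11.15 with numpy 2.4.6, scipy 1.17.1 and pandas 2.3.3, with figures in matplotlib 3.10.9. Genes needed 20 UMIs in the compared sets together. A ratio past 2-fold is a size, not a test. Where a count was 0, 3 counts were taken as the limit. The ratio was tested on simulated counts without variation between cells, the sampling model its interval assumes, so that test covers only the computation. Members were grouped in R 4.3.3 with Seurat 5.3.0 (scale factor 10000, 3098 variable genes, regression of UMI number and mitochondrial share, 11 components, resolution 0.6). Positions are from GENCODE on GRCm38, the assembly also called mm10.

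Named genes were those of the rule and of the marker lists, the 25 of the largest and 15 of the smallest ratio (at least 20 UMIs and 10% of cells in the higher set), 6 leading genes of each subcluster, and 10 each way against thalamus-like neurons. Pcp4, Crnde, Msantd2 and the genes led by Fam19a1 and Stxbp6 in the comparison with cells without Robo3 were picked after their values were seen. Values of some genes are not reported here. The members and lists were chosen with earlier results of these data known. Alternatives varied the thresholds, depth, mitochondrial limit, comparison set, UMI minimum, mean of CPM over cells and clustering settings.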

Additional observations from a re-analysis of the deposited data

How the results depend on the processing

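No paired analysis was possible because all samples are runs of 1 pooled library and no result comes from a test. Requiring 2 Robo3 UMIs left 143 members (3.57% of Stmn2 cells), and applying the rule after thinning left 205 (5.93%). With a minimum of 1 Stmn2 UMI the share was 7.62% of the larger set. The other settings gave 309 to 354 members. Of genes past 2-fold, 321 were higher and 944 lower with a minimum of 50 UMIs and 1207 and 5412 with a minimum of 1 UMI, which change how many genes are compared. With 2 Robo3 UMIs, and thus fewer cells, 2365 genes were lower. Of 53 named genes past 2-fold, each kept its direction under the 8 alternatives run on it and stayed past 2-fold, except Nhlh2 with 2 Robo3 UMIs. Thalamus-like neurons and Pou4f1-positive cells without a Robo3 UMI were not among these alternatives. Against them several of these genes lay within 2-fold, as given above. Under the alternatives, log2 ratios of named genes left their counting interval 111 times and stayed within it 330 times, and 40 and 41 of the former were against the other comparison sets. The subclusters numbered 3 or 4. Leaving out members with at least 2 detected genes of other cell types gave 325 members, a setting added after the data were seen. At a median of 3851 UMIs, absence of a UMI does not show absence of a transcript, and 1 library gives no spread between embryos.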

Other observations

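Leading genes were also placed on the genome. Nrgn (chr9:37544492-37552904 in mm10) lies 111 kb from Robo3 on the same strand, and the gene between them in the comparison, Msantd2, was at 1.09. The noncoding gene Crnde, 1.51 kb from Irx5 on the opposite strand, was detected in 26.5% of members against 5.35% of the other Stmn2 cells, at a log2 ratio of 2.29. The part of read assignment in these values was not tested.

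Outside the rule, Pcp4, a calmodulin-binding peptide gene, was detected in 47.5% of subcluster 1, 97.1% of subcluster 2 and 93.2% of subcluster 3, and Zfhx3, a homeodomain factor, in 40.2%, 21.0% and 89.8%. Foxp2, a forkhead factor also found in thalamic neurons, was found in 80.0% of subcluster 2 against 40.8% and 16.9% of the others. Insm1, a factor of newborn neurons, was in 27.4% of subcluster 1 against 4.76% and 10.2%.

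Among barcodes removed by the limits, 1 of 114 met the gene criteria of the rule, with 279 Hba-a1 UMIs and 5 Pou4f1 UMIs among 5376.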
